A study of Mus musculus with 6 samples.

Results

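A set of 10 genes that receive the interferon signal and hold it in check was followed in mouse CD8+ T cells. They were taken by symbol from a table of 25638 genes, and all 10 were present: the receptor chains Ifngr1, Ifngr2, Ifnar1 and Ifnar2, the kinases Jak1 and Jak2, and the inhibitors Socs1, Socs3, Ptpn2 and Pias1. The cells were OT-I cells, whose transgenic T cell receptor recognises an ovalbumin peptide, labelled as wild type, and all groups received this peptide for 48 hours. The groups were OT-I cells with vehicle, with TANs, or with TAMos, and each had 2 libraries. The labels do not spell out the last 2 names. TANs (CD11b+, Ly6G+, Ly6C low) and TAMos (CD11b+, Ly6G-, Ly6C high) came from the spleen of mice with LLC tumours, and activated T cells were purified after the culture for RNA extraction. The myeloid cells therefore came from spleen, not from the tumour itself, and no source used here gives the age of the mice.

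Interferon-gamma binds a receptor of the chains IFNGR1 and IFNGR2, which carry the kinases JAK1 and JAK2. Type I interferons bind IFNAR1 and IFNAR2, which carry TYK2 and JAK1, so that JAK1 serves both receptors. The kinases phosphorylate STAT factors, which switch on target genes, among them Socs1, whose product blocks the kinases. In T cells the IFNGR2 chain is known to be scarce, which limits how strongly these cells respond to the interferon-gamma that they make themselves.

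The unit is FPKM, the reads of a gene divided by its length in kilobases and by the library's counted reads in M. The steps of low values corresponded to 41.6 to 45.3 M counted reads in 5 libraries and to 21.9 or 43.7 M in TAMo replicate 1, where most read numbers were even, so that its depth is uncertain. One read in a gene of 2 kb was then worth 0.011 to 0.0229 FPKM. Transcripts of the mitochondrial genome made up 8.07% to 8.34% of all FPKM with vehicle or TAN and 1.20% and 1.32% with TAMo. Of 10 T cell markers 9 were in the table and all 9 were expressed, with Cd3e at 102 FPKM or more in every library. They moved with TAMo too, where 6 were called higher and 3 lower, against 45.7% and 40.7% of all genes tested, together 86.5%. Cd28 rose from 30.6 to 109 FPKM, Cd2 fell from 196 to 51.8 FPKM and Cd8a fell from 148 to 94.8 FPKM (limma adjusted p = 3.12e-09, 8.34e-08 and 5.67e-07). With TAN, 1 was called lower (Cd8a, 135 FPKM, limma adjusted p = 0.0249), against 11% of all genes tested. Of 13 neutrophil markers 6, among them S100a8 and S100a9, were listed at 0 throughout, and the other 7 stayed under 1 FPKM. Their list summed to 0.0492 to 0.140 FPKM with vehicle or TAN and to 0.335 and 0.584 FPKM with TAMo. Most of the TAMo sum was Ltf, at 0.310 and 0.456 FPKM against at most 0.0605 elsewhere. Of 13 monocyte markers 4 reached 1 FPKM. Their list summed to 19.2 to 21.2 FPKM with vehicle or TAN and to 27.0 and 31.5 FPKM with TAMo. Lyz2 stayed at or under 0.182, Itgam at or under 0.0436 and Csf1r at or under 0.0361 FPKM in all libraries, and Lyz1 was listed at 0, but Cd14 was at 2.84 and 3.17 FPKM with TAMo against at most 0.0852 elsewhere. Of the 4 that reached 1 FPKM, Cd14, Cd68 (2.65 to 5.34 FPKM) and Ms4a6c (2.50 to 5.58 FPKM) were called higher with TAMo against vehicle (limma adjusted p = 5.4e-07, 0.0249 and 0.000133), and Ctss was not (0.655). In that comparison 45.7% of all genes tested were called higher. The 7 markers of dendritic cells and MHC class II summed to 83.3 and 84.2 FPKM with vehicle, 64.8 and 65.7 with TAN and 60.3 and 63.7 with TAMo. Of their 4 tested genes 3 were called lower with TAN, against 11% of all genes tested. With TAMo 3 were called lower and 1 higher, where 86.5% of all genes tested were called. The 4 B cell markers summed to between 4.58 and 7.47 FPKM. CD4 T cell and NK cell markers stayed under 1 FPKM. In bulk RNA, fewer cells of a type and less RNA per cell cannot be told apart. Nothing in the labels tells whether both libraries of a group are independent cultures or mice, and p-values here reflect only how these libraries varied, perhaps technically.

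With vehicle, Jak1 was the most abundant of the 10 transcripts and Ifngr2 the scarcest, and this order of the extremes was the same in the other groups. FPKM is per length, so these levels can be set side by side, but the gene lengths used are not known. The order of genes with near levels is therefore uncertain. In vehicle the 10 genes followed in the order Jak1 (82.8 FPKM), Ifngr1 (49.9), Ptpn2 (44.2), Ifnar1 (36.6), Socs3 (28.6), Socs1 (24), Ifnar2 (18.6), Jak2 (17.8), Pias1 (9.85) and Ifngr2 (3.76). No neighbours in that order overlapped between their 2 libraries, which does not measure an error in gene length. With TAN the order differed only in Socs3 and Ifnar1, which changed places at 32.4 and 32.1 FPKM and overlapped. With TAMo, Jak2 moved up from rank 8 to rank 3 at 70.4 FPKM, behind Jak1 and Ifngr1, and Pias1 and Ifnar2, at 16.9 and 15.7 FPKM, overlapped.

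**Figure D1:**
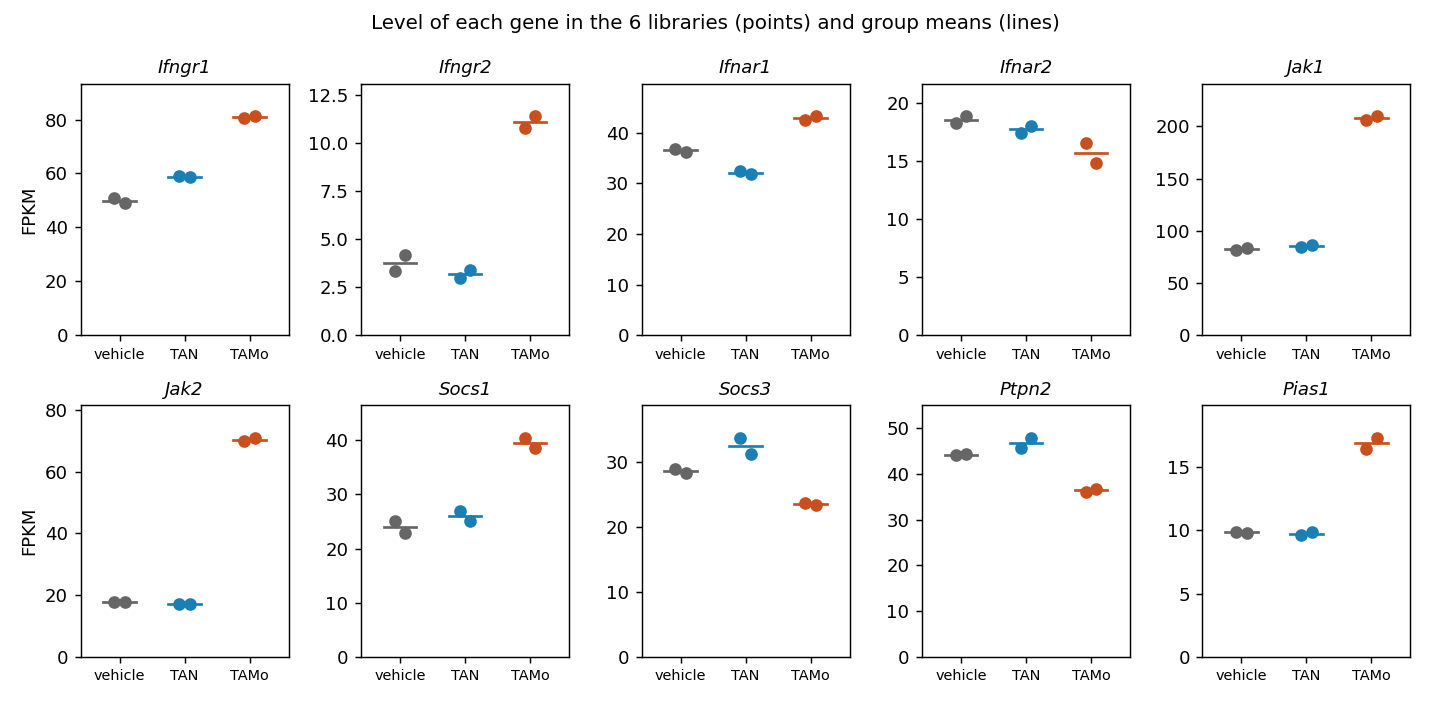
Level of each of the 10 genes in FPKM (vertical axes, each from 0) in the 2 libraries of each group (points) with the group mean (lines). The TAMo points of Ifngr1, Ifngr2, Jak1, Jak2, Socs1 and Pias1 lie well above the others, those of Ifnar2, Socs3 and Ptpn2 lie below them, and the TAN points lie near vehicle.

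These comparisons show how the equipment for sensing and restraining interferon differed after either co-culture. With TAMo it changed in every part: the interferon-gamma receptor, its kinases and Socs1 were higher, while Socs3, Ptpn2 and Ifnar2 were lower. Of the 10 genes, 7 rose and 3 fell against vehicle, where 45.7% of the 10727 genes tested were called higher and 40.7% lower, together 86.5%. So a call alone says little about these genes, and the sizes carry the description. Of all tested genes 82.5% changed less than Ifngr2, and 53.7% to 55.6% changed less than Ifngr1, Socs1 and Pias1. Only 19.1% to 23.3% changed less than Ifnar1, Ifnar2, Socs3 and Ptpn2. The groups did not overlap for any of the 10, against 92.7% of all genes tested. The median of the 10 log2 changes was 0.69, against 0.06 over all genes tested, whose middle 50% lay between -0.60 and 0.67.

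With TAN the same genes stayed close to vehicle, as did most genes tested. Even so, Ifngr1, Ifngr2, Ifnar1 and Socs3 changed more than 84.6%, 77.6%, 76.0% and 73.8% of all tested genes. Of the 10, 2 rose (Ifngr1 and Socs3), 1 fell (Ifnar1) and 7 did not pass the test, where 9.37% of all genes tested were called higher and 11% lower, together 20.3%. The libraries of the 2 groups did not overlap for 8 of the 10 genes, against 64.1% of all genes, and the median log2 change was 0.01 against -0.005 for all genes. The TAN and TAMo comparisons share the vehicle libraries.

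**Figure D2:**
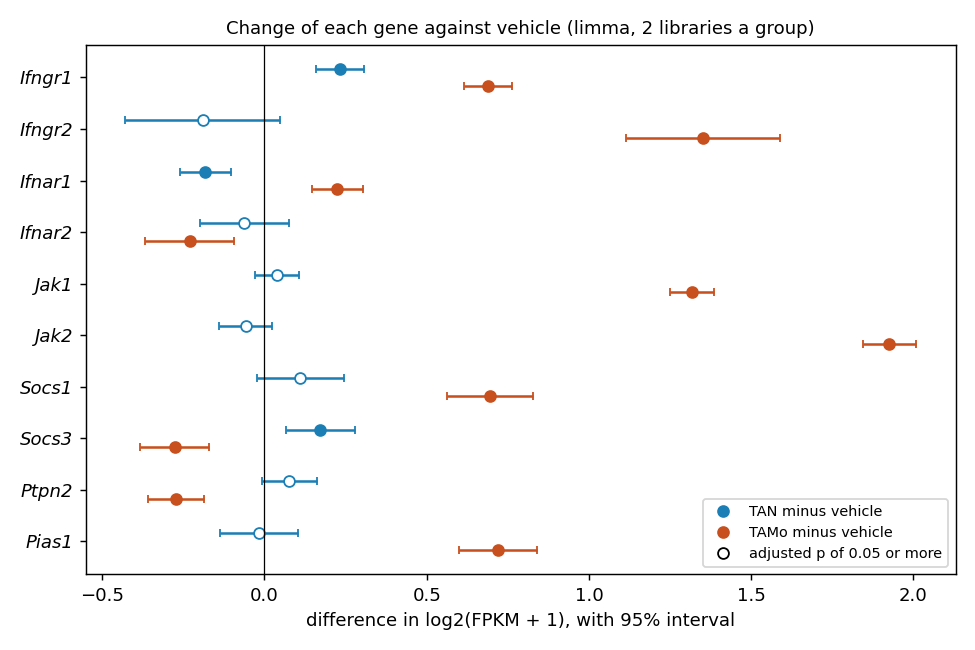
Difference from vehicle in log2(FPKM + 1) (horizontal axis) for the 10 genes, with 95% intervals from limma, for TAN (blue) and TAMo (orange). Open points have an adjusted p of 0.05 or more. Jak2 (1.93), Ifngr2 (1.35) and Jak1 (1.32) stand far to the right with TAMo, and no TAN change is larger than that of Ifngr1 (0.23).

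Both chains of the interferon-gamma receptor were higher with TAMo, and the scarce chain rose more. Ifngr1, the ligand-binding chain (GRCm38 chromosome 10, 19591949 to 19610229), was at 50.9 and 48.9 FPKM with vehicle, 58.9 and 58.7 with TAN, and 80.8 and 81.2 with TAMo. The 3 groups did not overlap, in the order vehicle, TAN, TAMo. Against vehicle Ifngr1 was 1.18-fold higher with TAN (log2 change 0.23 ± 0.032, SE, n = 2 libraries a group, limma adjusted p = 0.00407) and 1.62-fold higher with TAMo (0.69 ± 0.032, limma adjusted p = 4.32e-07). It was also lower with TAN than with TAMo, by 0.45 on the log2 scale (limma adjusted p = 4.68e-06).

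Ifngr2, the chain that brings JAK2 to the receptor (chromosome 16, 91547072 to 91565623), was at 3.34 and 4.19 FPKM with vehicle, 2.95 and 3.37 with TAN, and 10.8 and 11.4 with TAMo. Vehicle and TAN overlapped, and both TAMo libraries lay far above the other 4. The mean with TAMo was 2.95-fold that of vehicle, 11.1 ± 0.413 against 3.76 ± 0.604 FPKM (SD, n = 2), a log2 change of 1.35 ± 0.10 (limma adjusted p = 7.06e-06). With TAN the change was -0.19 ± 0.10 and did not pass (limma adjusted p = 0.23), with a 95% interval from -0.43 to 0.05 on the log2 scale. Since 1 is added to each value, these log2 changes understate those of a gene near this level.

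The ratio of Ifngr1 to Ifngr2 within a library was 15.3 and 11.7 with vehicle, 19.9 and 17.4 with TAN, and 7.47 and 7.12 with TAMo. This ratio does not depend on how a library is scaled, and the 3 groups did not overlap in it; it was not tested.

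The chains of the type I interferon receptor moved little and, with TAMo, in opposite directions. Ifnar1 (chromosome 16, 91485238 to 91507441), the chain that carries TYK2, was at 36.9 and 36.3 FPKM with vehicle, 32.4 and 31.9 with TAN, and 42.6 and 43.3 with TAMo. The groups did not overlap, with TAN lowest and TAMo highest. Ifnar1 fell with TAN, to 0.878 of the vehicle level (log2 change -0.18 ± 0.033, limma adjusted p = 0.0114), and rose 1.17-fold with TAMo (0.22 ± 0.033, limma adjusted p = 0.000383). The TAN call did not survive leaving out any single vehicle or TAN library, at limma adjusted p of 0.053 to 0.075.

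Ifnar2, the chain that carries JAK1 (chromosome 16, 91372783 to 91405589), was at 18.3 and 18.9 FPKM with vehicle, 17.5 and 18.1 with TAN, and 16.5 and 14.9 with TAMo. The TAMo libraries were lowest and differed from each other more than those of the other groups did. Ifnar2 fell with TAMo to 0.845 of the vehicle level (-0.23 ± 0.058, limma adjusted p = 0.00678). The call was lost when libraries were rescaled to one FPKM sum (-0.04, limma adjusted p = 0.562), also when mitochondrial genes were left out of the sum (-0.14, limma adjusted p = 0.0594). With TAN the change of -0.06 ± 0.058 did not pass (limma adjusted p = 0.501). A transcript that joins Ifnar2 to its neighbour, Gm21970, shares 9.46% of the exonic bases of Ifnar2 and was listed at 0 in all libraries, so how reads of the shared exons were assigned is not known.

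The ratio of Ifnar1 to Ifnar2 was 2.02 and 1.92 with vehicle, 1.86 and 1.76 with TAN, and 2.58 and 2.90 with TAMo, so that among type I receptor transcripts Ifnar1 took a larger part with TAMo, whereas among those of the interferon-gamma receptor Ifngr2 did. Of the 4 receptor genes, 3 lie close together on the plus strand of chromosome 16. The genes in order are Ifnar2, Il10rb (a chain shared by the receptors of interleukin-10 and interferon-lambda), Ifnar1 and Ifngr2, within 192.8 kb, and no other gene annotated in that interval reached the level for testing. With TAMo their log2 changes were -0.23, -0.03 (not passed, limma adjusted p = 0.703), 0.22 and 1.35 along the chromosome, and with TAN they were -0.06, -0.29, -0.18 and -0.19. The TAMo values thus differed in direction and size between neighbours, with the highest at the Ifngr2 end; the differences between the genes were not tested.

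**Figure D3:**
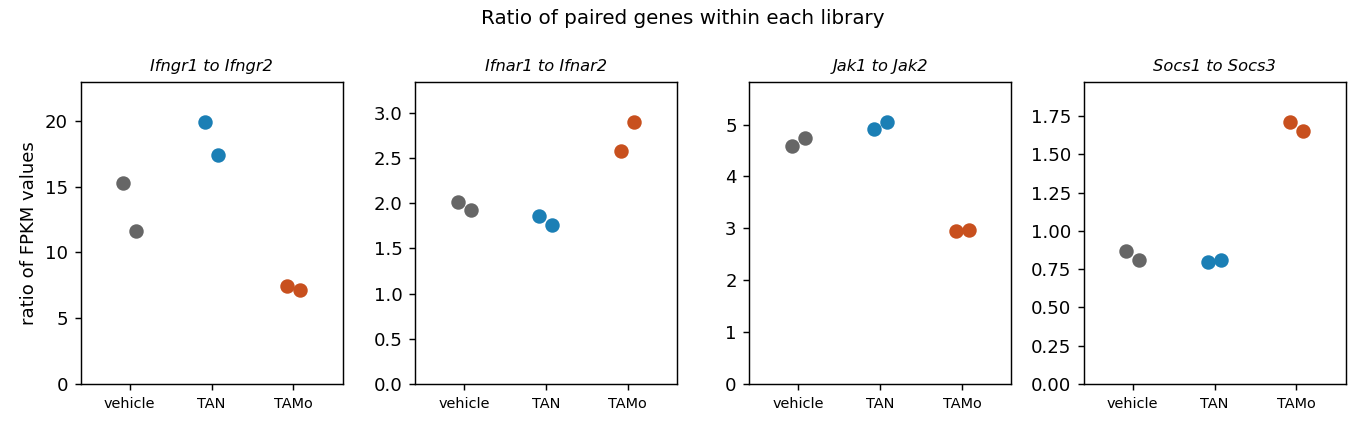
Ratio of the FPKM of paired genes within each library (vertical axes, each from 0; 2 points a group). With TAMo the ratios of Ifngr1 to Ifngr2 and of Jak1 to Jak2 are lower, and those of Ifnar1 to Ifnar2 and of Socs1 to Socs3 higher, than in all vehicle and TAN libraries.

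Both kinases were higher with TAMo, and Jak2 had the largest change of the 10 genes in that comparison. Jak2, which signals for interferon-gamma and for several cytokines (chromosome 19, 29251828 to 29313080), was at 17.9 and 17.7 FPKM with vehicle, 17.1 and 17 with TAN, and 69.9 and 70.8 with TAMo. Both TAMo libraries lay about 4 times above the others, a 3.96-fold rise (log2 change 1.93 ± 0.035, limma adjusted p = 4.09e-09), and 91.6% of all tested genes changed less. Jak1, which serves both interferon receptors and those of the common gamma chain (chromosome 4, 101152367 to 101265282), was at 81.8 and 83.9 FPKM with vehicle, 84.0 and 86.0 with TAN, and 206 and 210 with TAMo. Its rise was 2.51-fold (1.32 ± 0.029, limma adjusted p = 9.48e-09), and 81.5% of tested genes changed less. Neither kinase passed for TAN: Jak1 changed by 0.04 ± 0.029 (limma adjusted p = 0.407, 95% interval -0.03 to 0.11) and Jak2 by -0.06 ± 0.035 (limma adjusted p = 0.289, interval -0.14 to 0.02).

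The ratio of Jak1 to Jak2 within a library was 4.58 and 4.73 with vehicle, 4.92 and 5.06 with TAN, and 2.95 and 2.96 with TAMo. The other kinases of the family rose with TAMo as well, though less: Tyk2 1.60-fold, to 48.3 ± 1.83 FPKM, and Jak3, the partner of the common gamma chain, 1.75-fold, to 188 ± 4.55 FPKM (limma adjusted p = 2.42e-06 and 6.44e-07). With TAN, Tyk2 and Jak3 did not pass, at -0.06 and -0.10 on the log2 scale (limma adjusted p = 0.334 and 0.11).

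Promoter sequences were available for 9 of the 10 genes (RefSeq, GRCm38.p6, 250 bases before to 50 bases after the annotated start), and those of the pair that rose most with TAMo are shown 5′ to 3′, 250 bases up to the start. Jak2 stands at chr19:29251553-29251802 and Ifngr2 at chr16:91546809-91547058, both on the plus strand. They are rich in G and C, at 80.8% and 74.0%. The letters TTCNNNGAA of the gamma-activated site (GAS), which STAT dimers bind, and the core of the interferon-stimulated response element (ISRE), which is GAAA, any 2 bases and GAAA again, were searched on both strands. Neither motif was found in these windows, so nothing is in capitals.
Jak2: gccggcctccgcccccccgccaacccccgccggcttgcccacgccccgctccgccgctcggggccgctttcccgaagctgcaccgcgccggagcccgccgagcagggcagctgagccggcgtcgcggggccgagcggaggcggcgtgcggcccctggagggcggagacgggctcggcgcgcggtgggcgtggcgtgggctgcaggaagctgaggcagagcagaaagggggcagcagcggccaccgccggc
Ifngr2: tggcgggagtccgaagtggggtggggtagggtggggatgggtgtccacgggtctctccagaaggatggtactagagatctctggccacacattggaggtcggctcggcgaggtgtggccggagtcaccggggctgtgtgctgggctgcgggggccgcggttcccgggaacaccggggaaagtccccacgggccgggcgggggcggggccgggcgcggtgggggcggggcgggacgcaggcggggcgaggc

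Of the feedback inhibitors, Socs1 and Pias1 were higher with TAMo and Socs3 and Ptpn2 lower. Socs1, which binds and blocks JAK1, JAK2 and TYK2 (chromosome 16, 10782240 to 10785536), was at 25.1 and 22.9 FPKM with vehicle, 26.9 and 25.1 with TAN, and 40.4 and 38.6 with TAMo. TAN and vehicle were near each other, with 25.12 FPKM as the lower TAN value against 25.09 FPKM as the higher vehicle value, and TAMo lay above both. The rise with TAMo was 1.64-fold (log2 change 0.70 ± 0.056, limma adjusted p = 1.14e-05). With TAN the change of 0.11 ± 0.056 did not pass (limma adjusted p = 0.213, interval -0.02 to 0.24).

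Socs3, which acts mainly on receptors of the interleukin-6 family through their gp130 chain (chromosome 11, 117966079 to 117970047), took the opposite course. It was at 28.9 and 28.3 FPKM with vehicle, 33.6 and 31.1 with TAN, and 23.6 and 23.3 with TAMo, so that the groups did not overlap and TAN was highest. Against vehicle Socs3 rose 1.13-fold with TAN (0.17 ± 0.046, limma adjusted p = 0.0389) and fell to 0.819 with TAMo (-0.28 ± 0.046, limma adjusted p = 0.000712). The TAN call was lost when any single vehicle or TAN library was left out (limma adjusted p = 0.0507 to 0.182), without the filter on low values (0.0835) and without the variance trend (0.0697). The TAMo call was lost when libraries were rescaled to one sum (-0.08, limma adjusted p = 0.132). Directly compared, Socs3 was 1.38-fold higher with TAN than with TAMo (limma adjusted p = 4.29e-05).

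The ratio of Socs1 to Socs3 was 0.867 and 0.811 with vehicle, 0.799 and 0.806 with TAN, and 1.71 and 1.66 with TAMo. Socs3 was thus the more abundant of the pair in the 4 vehicle and TAN libraries, and Socs1 in both TAMo libraries, whatever the scaling.

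Since Socs1 and Socs3 moved apart, their upstream sequences are shown, with motif letters in capitals. That of Socs1 (chr16:10785537-10785786, minus strand, 61.2% G and C) holds 2 overlapping ISRE core matches, GAAAGAGAAA and GAAACCGAAA, which begin 83 and 77 bases before the start. That of Socs3 (chr11:117969452-117969616, minus strand, 70.3% G and C, 165 bases) holds 1 GAS match, TTCTTAGAA, 154 bases before the RefSeq start. The bases next to that start lie in an annotated exon and are not printed. By the gene coordinates given above, which come from another annotation, this stretch lies inside Socs3 and not upstream of it. The ISRE core was found in 3.44% of 32851 promoters of the same length and in 1 of the 9 studied here, and GAS in 8.3% and in 3 of 9. The other GAS matches were TTCCTGGAA of Ifnar2, 214 bases before the start, and TTCACGGAA of Ifnar1, which begins 5 bases before it.
Socs1: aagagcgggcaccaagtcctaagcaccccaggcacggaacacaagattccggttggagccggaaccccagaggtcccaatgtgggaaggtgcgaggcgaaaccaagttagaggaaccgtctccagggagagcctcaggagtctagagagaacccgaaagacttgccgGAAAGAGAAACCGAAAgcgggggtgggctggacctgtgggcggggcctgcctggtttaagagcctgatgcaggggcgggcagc
Socs3: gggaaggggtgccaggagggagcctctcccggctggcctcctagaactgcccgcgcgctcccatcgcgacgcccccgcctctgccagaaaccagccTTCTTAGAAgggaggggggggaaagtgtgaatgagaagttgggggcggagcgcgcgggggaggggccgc

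Ptpn2, the phosphatase TC-PTP, which removes phosphate from JAK1 and JAK3, was at 44.1 and 44.3 FPKM with vehicle, 45.6 and 47.8 with TAN, and 36 and 36.8 with TAMo. It fell with TAMo to 0.824 of the vehicle level (-0.27 ± 0.036, limma adjusted p = 0.000208), a call that was lost when libraries were rescaled to one sum (-0.07, limma adjusted p = 0.09). With TAN the change of 0.08 ± 0.036 did not pass (limma adjusted p = 0.181, interval -0.01 to 0.16).

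Pias1, a SUMO ligase that restrains STAT factors (chromosome 9, 62878368 to 62987924), was at 9.89 and 9.80 FPKM with vehicle, 9.60 and 9.84 with TAN, and 16.4 and 17.3 with TAMo. Vehicle and TAN overlapped, and the log2 change with TAN was -0.02 ± 0.051 (limma adjusted p = 0.851). Pias1 rose 1.71-fold with TAMo (0.72 ± 0.051, limma adjusted p = 5.21e-06).

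Between the co-cultures, 3 of the 10 genes were higher with TAN (Socs3, Ptpn2 and Ifnar2) and 7 lower, where 40.6% of all tested genes were called higher with TAN and 46% lower, together 86.6%. The libraries of the co-cultures did not overlap for any of the 10, against 93% of all tested genes. The largest differences were those of Jak2, 4.13-fold higher with TAMo, Ifngr2, 3.51-fold, and Jak1, 2.44-fold (limma adjusted p = 3.6e-09, 3.36e-06 and 1.1e-08). The smallest was that of Ifnar2, at 0.17 ± 0.058 (limma adjusted p = 0.0271). It turned to -0.02 when libraries were rescaled to one sum (limma adjusted p = 0.753), and the call was also lost with mitochondrial genes left out of that sum (0.246), with no filter (0.0567) and without TAN replicate 1, TAN replicate 2 or TAMo replicate 2 (0.0545, 0.125 and 0.151).

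**Figure D4:**
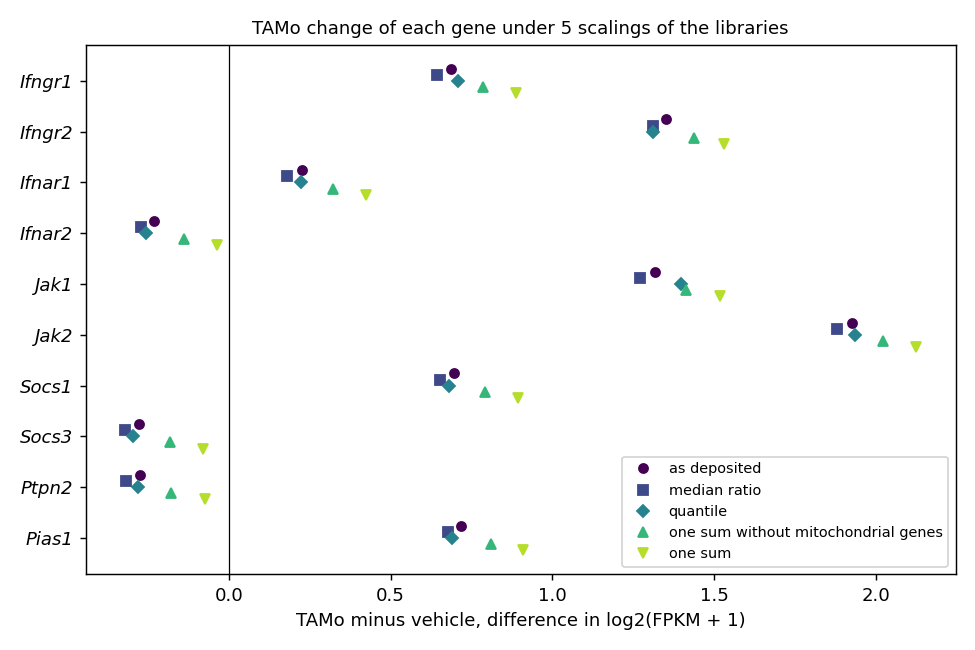
TAMo minus vehicle in log2(FPKM + 1) (horizontal axis) for each gene under 5 scalings of the libraries (symbols). The values of Ifnar2, Socs3 and Ptpn2 come near 0 with one sum (-0.04, -0.08 and -0.07) and those of the other 7 genes stay above 0 in each.

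The FPKM of all genes summed to 546324 and 548039 with TAMo and to 628328 to 630749 with vehicle or TAN, and the mitochondrial share was lower with TAMo. Rescaling libraries to one FPKM sum moved the median of all genes for TAMo against vehicle from 0.06 to 0.24 on the log2 scale. With mitochondrial genes left out of the sum, it moved to 0.15. Relative to that median, the changes of Ifnar2, Socs3 and Ptpn2 lay below those of most genes under either scaling. The rises of Ifngr1, Ifngr2, Jak1, Jak2, Socs1 and Pias1 were each at least 0.63 on the log2 scale under all 17 alternatives tried.

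The ligand gene Ifng was lower with TAMo, and the kinases and factors of the pathway were mostly higher. Of 20 genes of ligands, other kinases and factors, 12 were tested, and the other 8, all genes of type I or type III interferons, stayed at or under 0.0796 FPKM in every library. Ifng, the gene of interferon-gamma, was at 677 and 683 FPKM with vehicle, 1126 and 1147 with TAN, and 225 and 227 with TAMo. It was thus lowest where its receptor chains and kinases were highest, with a log2 change of -1.59 ± 0.025 with TAMo (limma adjusted p = 2.15e-09), and it was 5.03-fold higher with TAN than with TAMo. Yet Ifngr1 was also higher with TAN than with vehicle, so its order over the groups was not the reverse of that of Ifng. A relation between them was not tested.

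With TAMo, 10 of these 12 genes rose, 1 fell (Ifng) and 1 did not pass (Stat2), where 45.7% of all tested genes were called higher and 86.5% were called. The median log2 change of the 12 was 0.71, against 0.06 over all tested genes. Stat2, which serves in the type I interferon complex, was at 42.8 and 43.4 FPKM (0.02 ± 0.037, limma adjusted p = 0.664), while Irf9, the DNA-binding partner in that complex, rose 1.46-fold (limma adjusted p = 1.04e-05). Irf1, a factor that interferon-gamma induces, rose 2.11-fold, to 174 ± 3.57 FPKM (limma adjusted p = 4.79e-08).

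With TAN, 2 of the 12 rose (Ifng and Stat5b) and 5 fell, while 5 did not pass, against 9.37% and 11% of all tested genes. Without vehicle replicate 1, 3 were called lower, and without TAN replicate 2, 1 was called higher. Irf1 fell to 57.0 from 82.6 FPKM (-0.53 ± 0.033, limma adjusted p = 0.000266), Irf9 to 26.7 from 35.7 FPKM (-0.41 ± 0.042, 0.00145), and Stat2 by 0.23 on the log2 scale (0.00774). In the same libraries Ifngr1 was higher and Ifnar1 lower, and the other receptor chains and both JAKs did not pass.

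**Figure D5:**
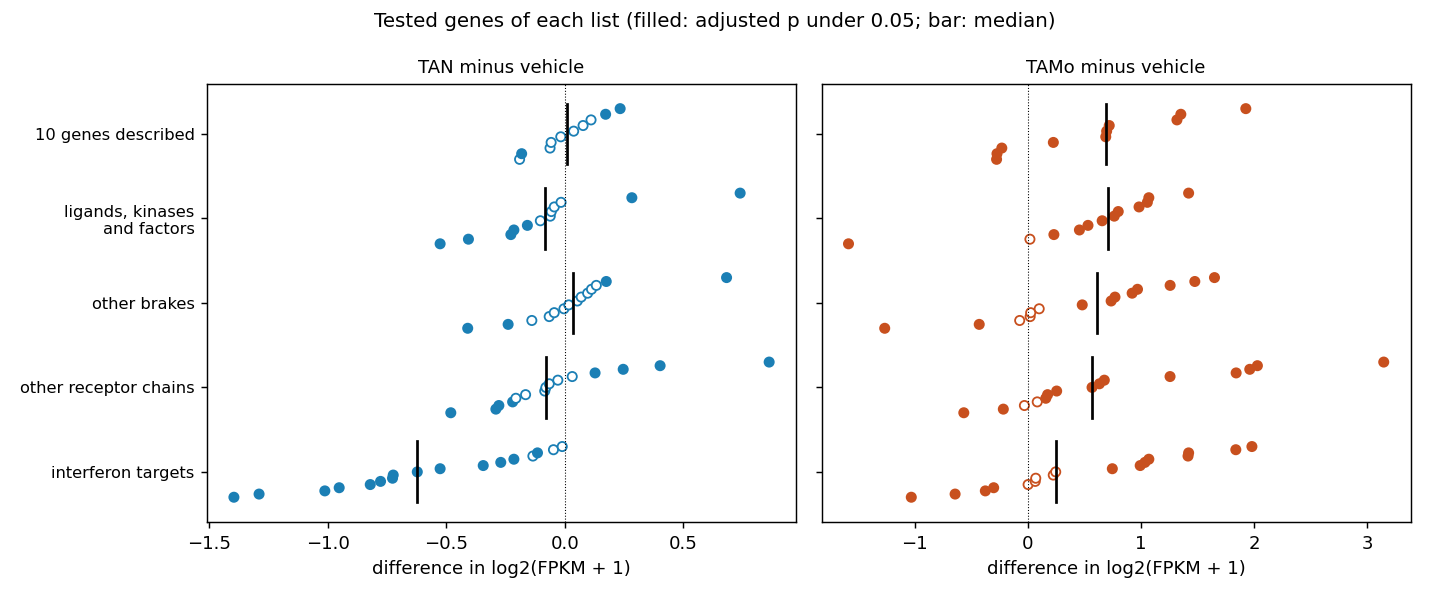
Difference from vehicle in log2(FPKM + 1) (horizontal axes, of different width) for each tested gene of the 10 described and of 4 further lists, for TAN (left) and TAMo (right). Filled points passed the test and bars are medians; the interferon targets lie at or left of 0 with TAN and spread to both sides with TAMo.

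Other brakes on the pathway, 14 genes, were all tested. With TAMo 8 rose, 2 fell and 4 missed the threshold; their median log2 change was 0.61. Of all tested genes 45.7% were called higher and 40.7% lower, so that the 10 of 14 called were fewer than the background share of 86.5%. With libraries rescaled to one sum, 12 were called higher and 1 lower. Ptprc, the phosphatase CD45, rose 3.14-fold to 757 ± 2.01 FPKM, Socs5 3.41-fold to 9.67 ± 0.816 FPKM, and Usp18, which holds the type I receptor in check at IFNAR2, 2.44-fold to 65.4 ± 0.635 FPKM (limma adjusted p = 1.84e-09, 1.78e-06 and 1.31e-07). Cish, a target of STAT5, rose 1.90-fold, while Socs2, another STAT5 target, fell to 0.380 of the vehicle level, 6.23 ± 0.231 against 16.4 ± 0.307 FPKM (limma adjusted p = 1.63e-07). With TAN 2 rose and 2 fell: Socs2 rose 1.64-fold and Ptpn1, a close relative of Ptpn2, 1.13-fold, and Usp18 and Cish fell to 0.743 and 0.846 (limma adjusted p = 0.00044, 0.0204, 0.00202 and 0.00411). The share over all tested genes was 9.37% higher and 11% lower, and 1 of the 14 was called higher when vehicle replicate 1, vehicle replicate 2, TAN replicate 1 or TAN replicate 2 was left out.

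Of 20 interferon target genes 17 were tested. With TAN 14 fell and 0 rose, and the other 3 missed the threshold, where 11% of all tested genes were called lower and 9.37% higher. The median log2 change of the 17 was -0.62, against -0.005 over all tested genes. The count lower was 13 with libraries rescaled to one sum and 15 with the 2 groups fitted alone. It also fell when any single vehicle or TAN library was left out, where the median log2 change was -0.65 to -0.59. With TAMo 8 rose and 4 fell, and the other 5 missed the threshold (median 0.25 against 0.06, with 86.5% of all tested genes called), while rescaling to one sum gave 12 higher and 3 lower. Among the largest TAMo rises were Gbp2 4.05-fold, Igtp 3.60-fold and Irgm1 2.71-fold (limma adjusted p = 8.94e-09, 3.7e-09 and 2.1e-08). Ifit1 also rose, 2.25-fold, while Isg15, Psmb8, Bst2 and Oasl2 were the 4 that fell. Irf7, Mx1, Iigp1, Psmb9 and Cxcl10 did not pass. Which interferon these changes follow was not tested. Igtp, Irgm1 and Gbp2 belong to families with similar members, whose reads may be shared. Isg15 fell to 0.481 of the vehicle level with TAMo and to 0.370 with TAN (limma adjusted p = 1.05e-07 and 1.01e-05). The direction of the targets was known from earlier results on these data and is no independent support.

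By their profile over the 6 libraries, centred log2 values were compared between each gene and 8320 others with a mean of at least 5 FPKM. The nearest to Jak2 was Serpinb9, an inhibitor of granzyme B, with a root mean square difference of 0.016 on the log2 scale. The nearest to Jak1 was Ctc1 (0.012), to Ifngr1 Ap5m1 (0.0188), to Socs1 Trak2 (0.0279) and to Socs3 Kdelr2 (0.0273), and that of Ifngr2 was farther away, Zdhhc17 at 0.0613. With 3 groups many genes share a profile: 371 lay within 0.1 of Ifngr1 and 812 of Ifnar2, but 83 of Jak2 and 29 of Ifngr2. Among the 10 themselves the closest were Socs3 and Ptpn2 (0.0702) and Ifngr1 and Socs1 (0.0713).

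The monocyte and neutrophil marker sums were higher and the mitochondrial share lower in the TAMo libraries, with each neutrophil marker under 1 FPKM. T cell markers moved in both directions there. The sum of dendritic cell and MHC class II markers was lower in the TAMo and TAN libraries than with vehicle. The part of these differences in the changes of the 10 genes was not tested. Leaving out TAMo replicate 1, the library of uncertain depth, left 7 genes higher and 3 lower against vehicle.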

How the data were processed

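RNA of OT-I CD8+ T cells was sequenced in 6 libraries, 2 each for vehicle, TAN and TAMo, with groups and numbers as labelled. The authors deposited FPKM per gene and library. The submitters' processing notes name HISAT2 2.0.5, CASAVA, the build mm10 and featureCounts 1.5.0-p3, per the labels without their roles. No source used here gives the annotation, the strand setting or the gene lengths. Because FPKM divides by a library's total, a change in abundant transcripts moves all others.

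The 10727 genes that reached 1 FPKM in 2 or more libraries were tested on log2(FPKM + 1) with limma 3.58.1 in R 4.3.3 (lmFit, contrasts.fit, eBayes with a mean-variance trend; 3 residual and 4.066 prior degrees of freedom), in one model over all 6 libraries. All tests were two-sided, and a call needs an adjusted p (Benjamini-Hochberg, over all tested genes) under 0.05. Unadjusted p was under 0.05 for 3737 genes with TAN and 9332 with TAMo against vehicle, and for 9341 between the co-cultures. The fit was tested on simulated data. A fold in the text is a ratio of mean FPKM with nothing added. Values after ± are SDs for FPKM and standard errors for log2 changes. Replicates correlated at 0.998, 0.998 and 0.996 (Pearson, log2 values across genes), no pair was identical, and each library counted as 1 replicate.

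Coordinates came from GENCODE mouse release 21 (GRCm38, the assembly of mm10), in which 25295 of the symbols were found. Depth was estimated from step sizes of low values (up to 40 reads, tolerance 0.1) among 7708 genes with 1 annotated transcript. Each library had 1608 to 1755 such values, of which 98.2% to 99.0% were whole reads. Promoters came from RefSeq; upstream bases in an annotated exon of the same gene are not printed.

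All 10 genes are described. Further genes were named if they were among the 4 largest changes of a list in a comparison, or were fixed by name (Ifng, Stat2, Irf1, Irf9, Tyk2, Jak3, Socs2, Cish, Usp18 and Ptpn1). Il10rb, Isg15 and the profile neighbours follow from position, from the list rule or from likeness. One gene that the rule names is not reported here. The members and lists were chosen with earlier results of these data known. Alternatives tried were the pseudocount, the filter, 4 scalings, the variance trend, a fit of the 2 groups alone, a replicate block and leaving out each library.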

Additional observations from a re-analysis of the deposited data

How the results depend on the processing

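Of the 10 genes, 8 kept their direction and call under all 17 alternatives for TAN against vehicle (all but Ifnar1 and Socs3), 7 for TAMo against vehicle (all but Ifnar2, Socs3 and Ptpn2) and 9 for TAN against TAMo (all but Ifnar2). For TAN against vehicle, 2180 genes were called, but 1331 with no filter on low values and 725 to 2574 when each library was left out in turn. Of the 10 genes, 1 was then called higher with no filter, 1 with no variance trend and 1 to 2 without a library, and 0 to 1 was called lower without a library. For TAMo against vehicle, 0 of the 10 were called lower with libraries rescaled to one sum, and for TAN against TAMo the log2 change of Ifnar2 reversed to -0.0205 there. The cause of these changes was not tested, beyond there being fewer samples or more genes tested. Replicate numbers are shared between groups but nothing in the labels says that they pair samples, and the correlation of deviations between same-numbered libraries was 0.06, 0.02 and 0.008. With a replicate block 2140 genes were called for TAN against vehicle, 2 of the 10 higher and 1 lower, and no call of the 10 changed in any comparison. With 2 libraries a group, the standard errors of the 10 genes were 0.0287 to 0.101 on the log2 scale, which limits the size of change that can be seen.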

Other observations

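Other chains of cytokine receptors that use JAK1 or JAK2 as a whole complex were also measured, 15 of the 20 listed at a level for testing. Not every chain carries JAK1 or JAK2 itself. With TAMo 11 rose, 2 fell and 2 did not pass, so that 13 of 15 were called where 86.5% of all tested genes were (45.7% higher, 40.7% lower). Their median log2 change was 0.57, against 0.06 over all tested genes. Without vehicle replicate 1, vehicle replicate 2 or TAMo replicate 2, 1 was called lower. Il21r, the receptor of interleukin-21, rose 8.97-fold, from 61.6 ± 2.35 to 552 ± 1.4 FPKM, the common gamma chain Il2rg 4.13-fold to 259 FPKM, Il4ra 3.93-fold to 325 ± 9.88 FPKM and Il12rb2 3.62-fold to 258 ± 1.67 FPKM (limma adjusted p = 7.05e-10, 4.9e-09, 2.53e-09 and 1.36e-09). Il15ra, which presents interleukin-15, fell to 26.7 ± 0.424 from 39.98 ± 1.30 FPKM (limma adjusted p = 3.91e-06). With TAN 4 rose and 4 fell, against 9.37% and 11% of all tested genes. The count higher was 2 without vehicle replicate 1 or TAN replicate 1, and the count lower was 2 when either TAN replicate, or vehicle replicate 2, was left out. Il23r rose 2.44-fold to 3.20 ± 0.116 FPKM and Il12rb2 1.33-fold, and Il15ra fell to 0.709 of the vehicle level and Il10rb to 0.797 (limma adjusted p = 0.00124, 0.000266, 0.000635 and 0.0335). Il15ra was thus lower in both co-cultures, which share the vehicle libraries, and it differed by 0.09 ± 0.038 between them (limma adjusted p = 0.0685).

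Ifnlr1, the chain particular to the receptor of interferon-lambda, stayed at or under 0.032 FPKM in all libraries. Osmr, a chain of the oncostatin M receptor, was listed at 0 in the 4 vehicle and TAN libraries and at 0.422 and 0.439 FPKM with TAMo.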
